A study of Mus musculus with 4 samples.

Results

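Gli1 is the transcription factor that sonic hedgehog signalling switches on, and its mRNA is a standard readout of that signalling in medulloblastoma. The cells described here were granule progenitor-like cells of 4 mouse medulloblastomas, divided by whether a transcript of Gli1 had been counted in them. A cell belonged to the progenitor-like gate when it carried a transcript of Atoh1, the factor that specifies granule neuron progenitors, none of the leukocyte gene Ptprc, and transcripts of at most 2 of 5 neuronal genes (Cntn2, Neurod1, Stmn2, Pnoc and Rab3a). Of 6509 cells in all, 1790 (27.5%) met this gate, namely 250, 895, 465 and 180 cells of tumours 1 to 4. Within the gate, cells were chosen by their measured Gli1 value alone, above 0 or at 0. Gli1 was detected in 727 of them and undetected in 1063.

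All tumours formed 1 group. They were end-point medulloblastomas of the sonic hedgehog subgroup from Ptch1+/- mice that had been irradiated at birth, and they received no treatment. Live cells sorted from frozen suspensions were sequenced on the 10x Genomics platform. The labels number the tumours and do not state that each came from a mouse of its own, so the tests below measure the spread between these 4 libraries. The gated cells carried medians of 12603, 8181, 6830 and 8884.5 unique molecular identifiers (UMIs, each the count of 1 captured transcript) in tumours 1 to 4.

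In the hedgehog pathway the receptor Patched holds the membrane protein Smoothened off until ligand binds, and loss of Ptch1 leaves Smoothened active without ligand. The signal passes through the primary cilium, where it frees Gli2 from Sufu, and Gli2 then induces Gli1 and other target genes. Some of these targets, such as Ptch1 and Hhip, encode proteins that bind ligand and damp the pathway, while Mycn and the D-type cyclins drive division of granule progenitors.

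Gli1 (chromosome 10, 127329882 to 127341579, GRCm38.p6) gave 186, 559, 261 and 64 UMIs in the gated cells of tumours 1 to 4. It was detected in 46.0% of gated cells of tumour 1 (exact 95% binomial interval 39.7 to 52.4), 42.5% of tumour 2 (39.2 to 45.8), 40.4% of tumour 3 (35.9 to 45.0) and 24.4% of tumour 4 (18.4 to 31.4). The share was thus lowest in tumour 4, whose interval did not overlap those of the other tumours. Its level over all gated cells was 48.4, 70.3, 76.0 and 35.6 CPM (UMIs scaled to a common total for each sum of cells). Most detected cells held a single Gli1 UMI, which was the case for 27.6%, 27.9%, 28.0% and 15.6% of gated cells. Cells with 3 or more Gli1 UMIs made up 5.20%, 4.02%, 3.01% and 1.67%. These intervals cover counting error only.

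Detection followed sequencing depth. Detected cells had medians of 16301, 9049.5, 7813 and 12325 UMIs in tumours 1 to 4, against 10750, 7408, 6067 and 7765.5 UMIs in undetected cells. In the shallowest quartile of cells 27.0%, 27.2%, 18.97% and 2.22% carried Gli1, and in the deepest quartile 74.6%, 59.8%, 59.0% and 44.4% did. Had each tumour's cells all carried Gli1 at the tumour's pooled rate, counting alone would have found it in 49.7%, 44.7%, 41.3% and 28.7% of them. The measured shares were 0.9 to 4.3 percentage points below those values. The shallowest cells lay further below: in the shallowest quartile of tumour 4 the share of 2.22% (interval 0.056 to 11.8) compared with 14.5% at a single rate. Gli1 scaled for depth was 5.03 CPM in that quartile and 44.4 CPM in the deepest quartile of tumour 4, and 37.2 and 56.5 CPM in those of tumour 1. An undetected cell is a cell in which no Gli1 molecule was counted, and for any single cell this does not separate absence of Gli1 from thin sampling.

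**Figure D1:**
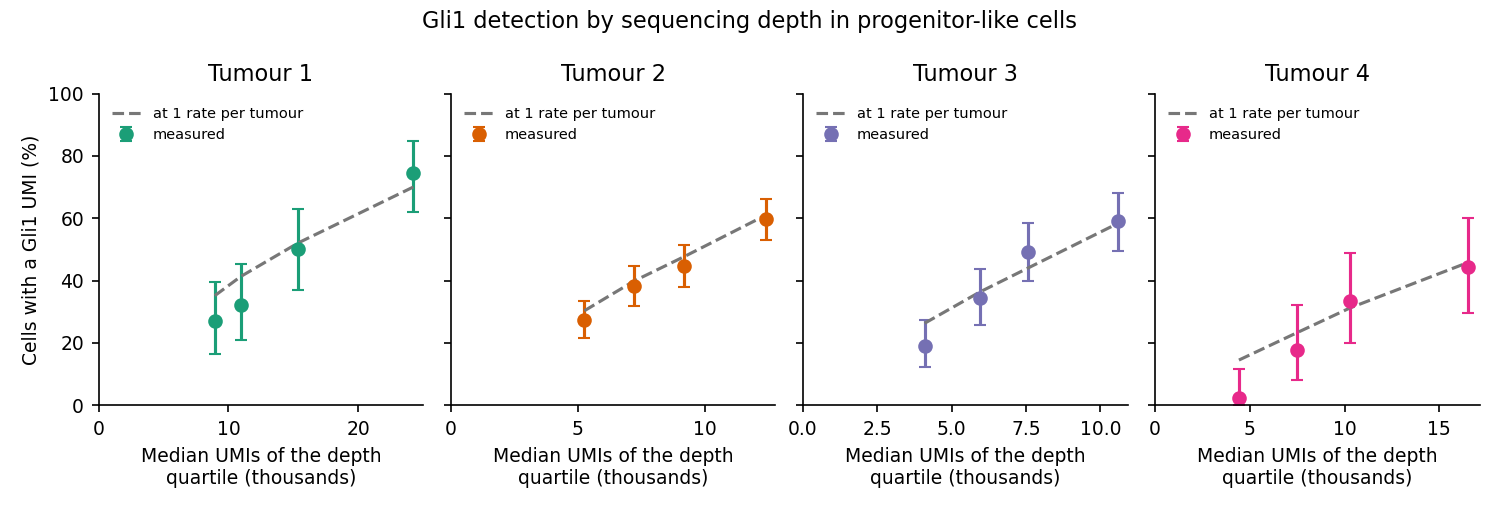
Share of gated cells with a Gli1 UMI in quartiles of total UMIs for each tumour, with exact 95% binomial intervals as bars. The dashed line is the share that counting would give if all cells of a tumour carried Gli1 at 1 rate; measured shares climb with depth in every tumour, to 74.6% in the deepest quartile of tumour 1.

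Free RNA in droplets can also place a transcript in a cell that does not make it. Among cells with a Ptprc transcript, which should lack Gli1, it was counted in 39.4%, 12.3%, 16.7% and 6.48% of cells of tumours 1 to 4, at medians of 14221.5, 6270, 8381 and 7772 UMIs. In tumour 1 the interval of that share (31.0 to 48.3%) overlapped that of the gated cells. With every cell thinned to 5700 UMIs Gli1 was found in 22.0%, 32.1%, 36.0% and 18.0% of gated cells, against 11.6%, 11.8%, 0% and 4.09% of the Ptprc-positive cells, of which 132, 60, 7 and 703 were deep enough. Atoh1 was at 248, 329, 439 and 203 CPM in gated cells, and Ptprc-positive cells carried it too, at 100.1, 61.1, 166 and 33.3 CPM. Ptprc-positive cells that also held 20 or more myeloid UMIs, with less Atoh1, had Gli1 in 12 of 75, 5 of 83, 0 of 6 (exact 95% interval up to 45.9%) and 31 of 949 cells, and in 4.95%, 6.15%, 0% and 1.81% after thinning.

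The markers were those of granule progenitors, with neuronal transcripts among them. In detected cells Barhl1, a homeobox gene of the granule lineage, averaged 390 CPM, against 380 CPM in undetected cells, and Zic1, a zinc finger factor of the same lineage, averaged 354 against 335 CPM. The gate let neuronal genes through: Neurod1 had a UMI in 55.7% and Stmn2 in 64.4% of gated cells (means of 4 tumours), and 1047 of the 1790 cells carried exactly 2 of the 5 neuronal genes. A further 1035 cells with exactly 3 lay just outside the gate. No barcode of a gated cell occurred in more than 1 tumour's gated cells.

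Because detected cells were deeper, single detected cells were paired with undetected cells of the same tumour by total UMIs without Gli1, within a distance of 0.1 on the log10 scale. Cells without a partner at that distance were left out, so not all of the 727 detected cells entered. The pairing gave 98, 373, 181 and 43 pairs in tumours 1 to 4, or 695 cells a group. Median depths of the paired cells were 14386, 8979, 7694 and 12318 UMIs in detected cells and 12307, 8569, 7268 and 12137 UMIs in undetected cells. Detected cells thus stayed deeper in every tumour, most so in tumour 1. UMIs were summed per tumour and group, scaled to CPM and compared as log2(CPM + 10) with limma, tumour being the block. All differences below are on that scale, detected minus undetected, and a fold for a low gene is understated by it. Between the paired groups the mitochondrial share was 3.74%, 3.04%, 3.47% and 4.15% in detected cells and 3.72%, 3.04%, 3.60% and 4.30% in undetected cells.

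No single hedgehog target gene passed the test between Gli1-detected and undetected cells in the limma fit without weights. Of 12 target genes 10 passed the filter on low values, which asked for a UMI in 5% of gated cells, and 0 of these 10 passed the test, where 14 of all 9706 genes tested (0.144%) did. The median difference of the 10 was 0.13, against 0.01 over all genes tested. At an unadjusted p under 0.05, 5 of the 10 were higher in detected cells (3.52% of all genes were) and 0 were lower. With voom precision weights, which give low counts less weight, Hhip (0.66, adjusted p = 0.0309) and Ccnd2 (0.15, adjusted p = 0.0417) passed; in the other settings tried 0 target genes did. The rule for the groups used Gli1 itself and none of these genes.

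Among the targets that bind ligand, Ptch1, the gene that is heterozygous in these mice, was close to absent, with 0, 1, 1 and 0 UMIs in detected cells and 0, 2, 0 and 1 in undetected cells, too few for a comparison. Hhip (chromosome 8, 79965850 to 80058060), a decoy that binds hedgehog ligand, had 45.5, 31.8, 24.7 and 5.24 CPM in detected cells and 20.4, 19.9, 21.7 and 9.07 CPM in undetected cells. Tumour 4 ran the other way from the rest, on 3 UMIs in detected and 5 in undetected cells, and the difference was 0.29 (SE 0.17, adjusted p = 0.816).

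Targets that drive division were close between the groups. Mycn, the Myc gene that keeps granule progenitors dividing, had 312, 428, 583 and 162 CPM in detected cells, against 285, 429, 502 and 140 CPM in undetected cells, a difference of 0.13 (SE 0.06, adjusted p = 0.721). Ccnd2, the main D-type cyclin of granule cell medulloblastoma in mice, had 417, 1102, 1365 and 764 CPM in detected cells and 412, 959, 1333 and 572 CPM in undetected cells. The detected value was the larger in 4 of 4 tumours, as it was for 8.13% of all tested genes, and most so in tumour 4, with a difference of 0.17 (SE 0.06, adjusted p = 0.581). Ccnd1, the related cyclin, had 375, 609, 577 and 458 CPM in detected cells and 299, 569, 594 and 423 CPM in undetected cells (difference 0.12, SE 0.06, adjusted p = 0.762). Sfrp1, a secreted Wnt antagonist that hedgehog signalling induces, had 975, 1145, 1699 and 809 CPM in detected cells and 903, 1080, 1716 and 613 CPM in undetected cells (difference 0.14, SE 0.05, adjusted p = 0.662). For these genes tumours differed more from each other than detected from undetected cells did within a tumour.

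Another 4 targets lay below 0. The differences were -0.11 for Foxm1, a factor that drives mitotic genes, -0.04 for Bcl2, which blocks cell death, -0.05 for the Polycomb gene Bmi1 and -0.11 for Pdlim3, a cytoskeletal adaptor, with adjusted p-values from 0.845 to 0.961. Eya1 was at 3.49 CPM or less in every tumour and was not tested.

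**Figure D2:**
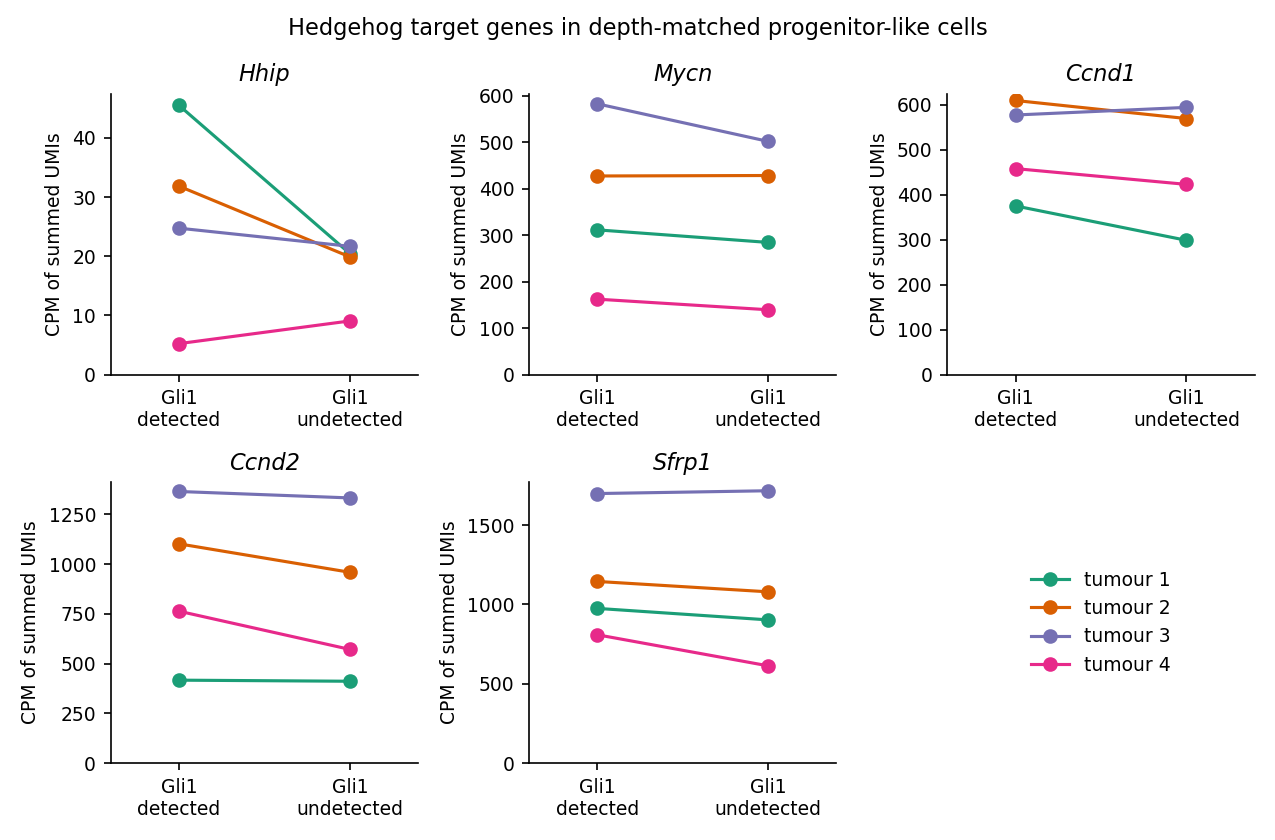
CPM of summed UMIs of 5 hedgehog target genes in depth-matched Gli1-detected (left) and Gli1-undetected (right) progenitor-like cells, 1 line per tumour. The Ccnd2 lines descend to the right in 4 of 4 tumours. For the genes other than Hhip, the spread between tumours exceeds the step between the groups. For Hhip the step of tumour 1, from 45.5 to 20.4 CPM, is wider than the range of undetected cells (9.07 to 21.7 CPM).

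Genes that carry the signal showed no call either. Of 27 transduction genes 24 were listed for all 4 tumours and 19 were tested; 0 passed, 0 had an unadjusted p under 0.05, and the median difference was 0.02. Smo, which encodes Smoothened, had 56.0, 43.5, 62.2 and 59.4 CPM in detected cells, against 38.7, 42.2, 54.2 and 59.9 CPM in undetected cells (difference 0.16, SE 0.11). Gli2, the activator upstream of Gli1, had 25.7, 23.8, 22.7 and 22.7 CPM in detected cells and 23.4, 21.4, 26.0 and 27.2 CPM in undetected cells. Its groups overlapped and its difference was -0.03 (SE 0.13). The co-receptor genes Boc and Gas1 differed by 0.15 (SE 0.10) and -0.01 (SE 0.12).

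The negative regulators and the ciliary genes of the list had differences near 0 as well. Sufu, which holds Gli proteins in the cytoplasm, differed by 0.05 (SE 0.13), and Spop, an adaptor for their degradation, by -0.09 (SE 0.10). Csnk1a1 and Gsk3b, kinases that mark Gli proteins for processing, differed by 0.00 (SE 0.06) and -0.01 (SE 0.07), and Prkaca, the catalytic subunit of the kinase that starts this marking, by -0.02 (SE 0.09). Btrc, which recognises the marked proteins, had the largest difference of the list, 0.22 (SE 0.14, adjusted p = 0.820). The ciliary genes Evc, Evc2 and Tulp3 differed by 0.04, 0.03 and 0.11. For Tulp3 the tumours disagreed, with 0.74, -0.44, 0.08 and 0.06 in tumours 1 to 4. Of 37 further genes of the primary cilium 33 were tested, and 0 passed; their median was 0.03.

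The number of Gli1 UMIs was also taken in steps, in 236 cells each with 0, 1 and 2 or more Gli1 UMIs, matched for depth within tumour. This is a description with no test. Mean Ccnd2 was 761, 836 and 956 CPM, but tumours differed: it was higher at each step in tumour 2 alone (897, 1022 and 1164 CPM), and stood at 422, 338 and 493 CPM in tumour 1, 1261, 1197 and 1413 CPM in tumour 3 and 464, 787 and 752 CPM in tumour 4. Mean Sfrp1 was 965, 1085 and 1150 CPM, and in tumours 1 and 3 it was lower at 2 or more Gli1 UMIs (944 and 1607 CPM) than at 1 (994 and 1710 CPM). Mean Mycn was 323, 359 and 363 CPM and mean Hhip 19.3, 29.4 and 24.8 CPM. In the fit of cells with 2 or more Gli1 UMIs against cells with 0, the target genes had a median of 0.19 (all genes 0.01), and 0 of the 10 passed.

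The genes that did differ between the groups were mostly genes of immune cells, and they were lower in Gli1-detected cells. All 14 genes that passed were lower in detected cells and 0 were higher; at an unadjusted p under 0.05, 342 genes were higher and 286 lower. Fcer1g and Tyrobp, signalling adaptors of myeloid receptors, Ctss, Ctsb and Cd68 of the lysosome, and C1qc, a subunit of complement C1q, were among them. So were the antigen presentation genes Cd74, H2-Ab1, H2-K1 and H2-D1 and the leukocyte surface gene Cd52. The other 3 were Ftl1, the ferritin light chain, Tmsb4x, which binds actin, and Efhd2, a calcium-binding protein of the cytoskeleton. H2-K1, H2-D1, Ftl1 and Tmsb4x have near-identical copies in the genome, and their counts are uncertain.

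Fcer1g (chromosome 1, 171229572 to 171234349) had 21.1, 7.47, 4.01 and 124 CPM in detected cells of tumours 1 to 4, against 77.4, 35.9, 37.6 and 327 CPM in undetected cells. The detected value was the smaller in 4 of 4 tumours, as it was for 6.23% of all tested genes, with a difference of -1.49 (SE 0.11, adjusted p = 2.04e-06). Cd74, the invariant chain of class II molecules, had 82.4, 16.3, 1.34 and 329 CPM in detected cells and 354, 207, 39.7 and 2049 CPM in undetected cells, the largest difference of the 14 at -2.44 (SE 0.16, adjusted p = 0.000313). H2-Ab1, a class II chain, had 39.5, 11.6, 2.01 and 206 CPM in detected cells and 104, 94.1, 15.9 and 905 CPM in undetected cells (difference -1.67, SE 0.19, adjusted p = 0.00854). Tumour 4 had the highest level of all 3 genes in both groups. Without it Cd74 and H2-Ab1 did not pass (adjusted p = 0.105 each), while Fcer1g did, and the count of genes past the threshold was 26 without tumour 3 and 26 without tumour 4. Smaller differences were those of Ctsb (-0.57), Tmsb4x (-0.28) and Ftl1 (-0.18), genes present in most gated cells.

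The myeloid transcripts sat in few cells. Over 13 myeloid markers other than Ptprc, the paired detected cells summed to 167, 36.8, 96.9 and 640 CPM, against 636, 304, 191 and 1818 CPM in undetected cells. Most cells of either group held few such UMIs, with medians of 2, 0, 0 and 9 in detected and 2, 0, 0 and 7 in undetected cells. Cells with 20 or more numbered 0, 0, 1 and 0 of the paired detected cells and 3, 5, 1 and 4 of the undetected cells, 1 against 13 of 695 each. Of the undetected cells' myeloid UMIs 73.6%, 87.9%, 87.9% and 70.4% lay in those cells. Over all gated cells they numbered 1 of 727 detected and 18 of 1063 undetected cells. Of all such gated cells, 2 of 4, 4 of 6, 0 of 2 and 6 of 7 held a single Atoh1 UMI, against 22.0%, 29.9%, 24.2% and 43.9% of the other gated cells.

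Without the cells that held 20 or more myeloid UMIs, a setting chosen after the data had been seen, 0 of 9706 genes passed; an unadjusted p under 0.05 was reached by 530. The difference of Fcer1g was then 0.00152, that of Cd74 -0.03, that of H2-Ab1 0.0575 and that of Ctsb -0.20. Efhd2 kept most of its difference, at -0.42 (adjusted p = 0.790) against -0.52 in the paired cells as a whole, and lost its call. The 13 markers that picked these cells include Fcer1g, Tyrobp, Ctss and C1qc, so for those genes the setting itself lowers the values in the undetected cells, and their fall is given as a description. The target genes stood at a median of 0.06 in that fit. Whether the myeloid-rich cells were doublets, phagocytes holding tumour RNA or leukocytes with a stray Atoh1 molecule was not tested.

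**Figure D3:**
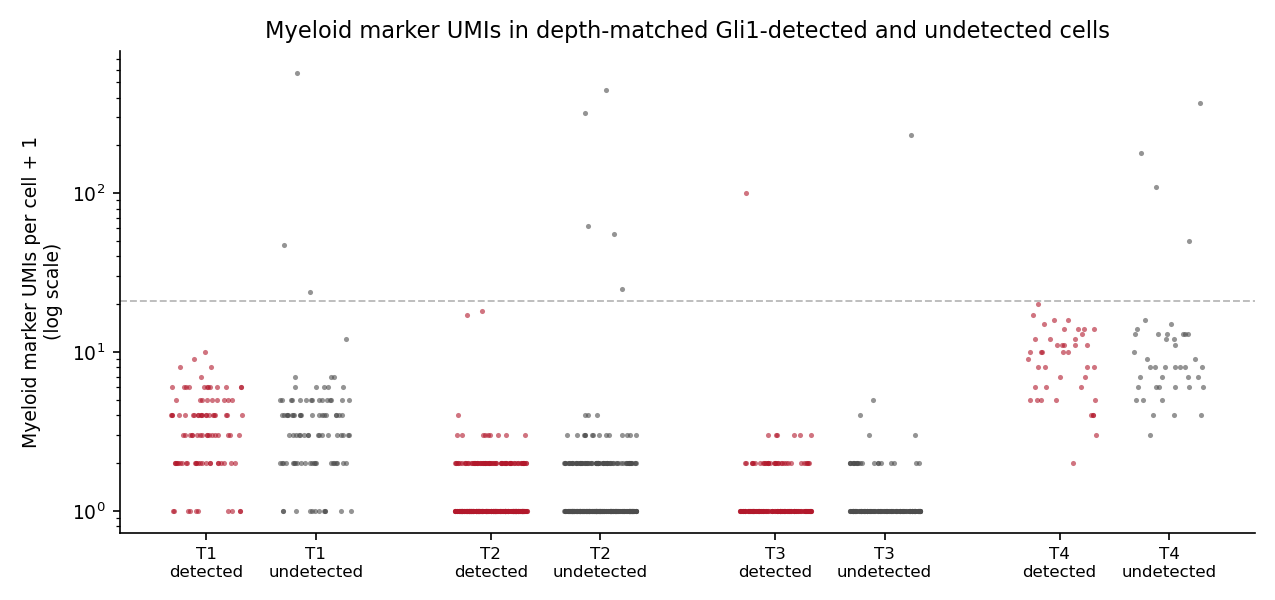
UMIs of 13 myeloid markers in each depth-matched Gli1-detected cell (left of each pair, red) and Gli1-undetected cell (right, grey) of tumours 1 to 4 (T1 to T4), plus 1, on a log axis. The dashed line marks 20 UMIs; 1 detected and 13 undetected cells lie above it.

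Cell cycle genes were higher in detected cells before depth matching, and 0 of them passed after it in the limma fit without weights. Across all gated cells, before matching, 50 genes passed (0.515%), 23 of them higher in detected cells (0.237%), and 12 of those 23 belonged to the cell cycle lists, among them Aurkb, Top2a, Cdk1, Mki67 and Smc4. In that unmatched fit all 47 genes of the G2/M and mitosis list had a positive difference, with a median of 0.29. After matching 0 of the 47 passed, 40 had a positive difference, and the median was 0.11 (all genes 0.01). At an unadjusted p under 0.05, 11 of the 47 were then higher and 0 lower. With voom precision weights on the same cells 5 of the 47 passed as higher (Aurkb, Cdk1, Mki67, Smc4 and Top2a), with a median of 0.23, and with all cells thinned to 1 depth 0 passed, 42 were positive and the median was 0.20.

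Aurkb, the mitotic kinase of the chromosomal passenger complex, had the smallest p of all genes that were not lower. It had 100.2, 115, 86.2 and 68.1 CPM in detected cells, against 54.0, 85.8, 73.7 and 41.7 CPM in undetected cells of tumours 1 to 4. The detected value was the larger in 4 of 4 tumours, and the difference of 0.49 (SE 0.11, adjusted p = 0.108) did not pass. Top2a, which untangles DNA before mitosis, had 318, 405, 364 and 173 CPM in detected cells and 211, 301, 340 and 171 CPM in undetected cells (difference 0.28, SE 0.08, adjusted p = 0.448). The per-tumour medians of the list were 0.27 and 0.30 in tumours 1 and 2 and -0.07 and -0.04 in tumours 3 and 4, so the list did not move together across tumours. Without tumour 4, Aurkb (0.45, adjusted p = 0.0158), Top2a (0.36, adjusted p = 0.0414), Mki67 and Smc4 passed as higher. Matched detected cells were still deeper than undetected cells in every tumour, most so in tumour 1. The part of this depth gap in these values was not tested.

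The share of cells with a transcript of Mki67, Top2a or Cenpf, genes of cycling cells, was 79.6%, 72.4%, 81.8% and 65.1% in paired detected cells and 78.6%, 66.5%, 80.7% and 76.7% in undetected cells. It was higher in detected cells in 3 of 4 tumours and lower in tumour 4, on 43 pairs. The mean difference was -0.90 percentage points (SD 7.51, n = 4; exact sign-flip permutation test, two-sided, p = 1), and 4 tumours cannot give a p below 0.125. Before matching the difference was 8.96 points, with detected cells higher in 4 of 4 tumours. The sign turned to 2.67 points without tumour 4. The G1/S and DNA replication genes had 0 of 38 past the threshold after matching and a median of 0.07. Among D-type cyclins, their kinases and the Rb family 0 of 9 passed, with Cdk4, the kinase partner of the cyclins, at 0.10 (SE 0.04, adjusted p = 0.721).

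Of 14 genes of cell cycle exit 0 passed. Cdkn1c, an imprinted inhibitor of cyclin-dependent kinases, had 430, 33.5, 20.1 and 17.5 CPM in detected cells, against 755, 37.7, 31.1 and 23.6 CPM in undetected cells. It was the smaller in detected cells in 4 of 4 tumours and by far most abundant in tumour 1, with a difference of -0.42 (SE 0.11, adjusted p = 0.346). Cdkn1c passed as lower in 2 other settings, namely with voom weights and without tumour 4. Slc29a1, a nucleoside transporter, and Slc7a5, an amino acid transporter, followed Aurkb by p among genes not lower, with Smc4 between them, at differences of 0.30 (SE 0.07, adjusted p = 0.158) and 0.37 (SE 0.09, adjusted p = 0.215). Both were larger in detected cells in 4 of 4 tumours. Mdk, a heparin-binding growth factor, followed at 0.22 (SE 0.06, adjusted p = 0.278). Slc29a1 passed as higher in 3 other settings, namely with a caliper of 0.05, with voom weights and without tumour 4. Slc7a5 passed as higher without matching alone, and Mdk in 0 settings.

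**Figure D4:**
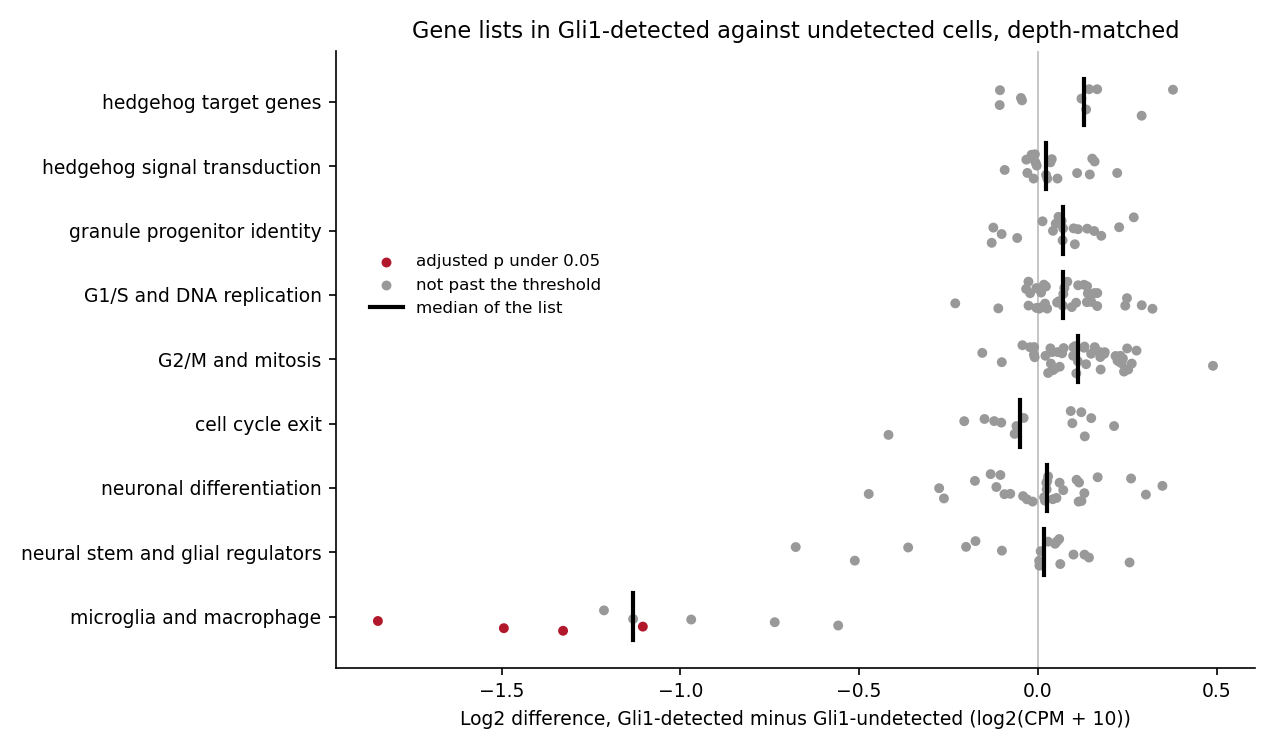
Log2 differences, Gli1-detected minus undetected, of the tested members of 9 gene lists in depth-matched cells; each point is a gene, the black bar is the list's median, and red marks an adjusted p under 0.05. Only microglia and macrophage markers hold red points among these 9 lists (C1qc, Tyrobp, Fcer1g and Ctss), while the hedgehog target and G2/M medians lie at 0.13 and 0.11.

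Identity genes gave no calls after matching. Of 19 granule progenitor identity genes tested 0 passed, 15 had a positive difference and the median was 0.07. Sox4, a factor of immature neurons and progenitors, had 236, 162, 185 and 183 CPM in detected cells and 231, 132, 164 and 154 CPM in undetected cells (difference 0.18, SE 0.07, adjusted p = 0.688). Of 31 neuronal differentiation genes 0 passed, with a median of 0.02. Nfib, which promotes granule cell maturation, differed by 0.13 (SE 0.05, adjusted p = 0.581), Elavl2, a neuronal RNA-binding protein, by 0.26 (SE 0.09, adjusted p = 0.519) and the adhesion gene Cntn1 by -0.47 (SE 0.20, adjusted p = 0.721). The Cntn1 differences were 0.02, 0.04, -0.60 and -1.36 in tumours 1 to 4. They rested on 7, 11, 35 and 7 UMIs in detected and 6, 9, 56 and 26 UMIs in undetected cells. Atoh1, which the gate required, was at 246, 322, 467 and 180.0 CPM in detected cells and at 237, 324, 408 and 171 CPM in undetected cells.

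The neural stem and glial regulators had 0 of 18 members past the threshold, with a median difference of 0.02. The list's medians were 0.06, 0.05, 0.00 and -0.27 in tumours 1 to 4, so it did not move together. At an unadjusted p under 0.05, 4 members were lower (2.95% of all genes were), and these 4 are named here. Olig2, which specifies oligodendrocyte precursors, had 40.2, 3.60, 12.7 and 40.2 CPM in detected cells and 67.1, 8.61, 23.8 and 56.3 CPM in undetected cells, a difference of -0.51 (SE 0.12, adjusted p = 0.215). Olig1, its neighbour and relative, had 106, 17.2, 44.1 and 73.4 CPM in detected cells and 124, 21.7, 94.6 and 199.6 CPM in undetected cells, a difference of -0.68 (SE 0.17, adjusted p = 0.391). Both were the smaller in detected cells in 4 of 4 tumours. In the fit of 2 or more Gli1 UMIs against 0, Olig1 was the 1 gene that passed, at -1.12 (adjusted p = 0.00946). Olig2 passed as lower with voom weights alone (adjusted p = 0.00673). Fabp7, a fatty acid-binding protein of radial glia, differed by -0.36 (SE 0.11, adjusted p = 0.519). Its differences were -0.73, -0.30, 0.12 and -0.55 in tumours 1 to 4, so tumour 3 ran the other way. Fabp7 passed as lower without tumour 3 (adjusted p = 0.0280) and stood at -0.04 without matching. Id2, an inhibitor of neurogenic factors, differed by -0.20 (SE 0.07, adjusted p = 0.519).

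Summed markers of other cells moved in several directions. The 13 astrocyte markers summed to 960, 428, 1173 and 1539 CPM in detected cells, against 1360, 1111, 911 and 4068 CPM in undetected cells. Apoe, a gene that macrophages also express, made up much of this sum, with 812, 540, 807 and 483 UMIs in detected and 1035, 2481, 584 and 1712 UMIs in undetected cells. The 13 markers together had 1457, 1546, 1755 and 881 UMIs in detected and 1863, 3741, 1261 and 2242 UMIs in undetected cells. Gfap, the defining filament of astrocytes, gave 76, 82, 109 and 36 UMIs in detected and 98, 102, 93 and 121 UMIs in undetected cells. The 11 oligodendrocyte lineage markers summed to 233, 89.1, 225 and 232 CPM in detected and 273, 102, 289 and 421 CPM in undetected cells, and Mog and Mag were at 0 in every group. Neutrophil markers reached 92.4 CPM in detected and 11.6 CPM in undetected cells of tumour 2, and 517 and 688 CPM in those of tumour 4. Lymphocyte markers summed to at most 12.2 CPM in detected and 30.8 CPM in undetected cells, and erythroid genes to at most 1.75 and 1.81 CPM. The part of these cells' RNA in the differences above, apart from the myeloid setting, was not tested.

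The other lists stayed without a call in the limma fit of paired cells without weights. In other settings, Ezh2 passed as higher (adjusted p = 0.0350) and Rps26 as lower without matching. With voom weights the imprinted gene H19 passed as lower (adjusted p = 8.59e-06). It had 212, 4, 3 and 0 UMIs in detected cells and 392, 7, 0 and 1 in undetected cells of tumours 1 to 4. Of 12 Notch pathway genes 0 passed, and Hey1, a Notch target, differed by 0.16 (SE 0.07, adjusted p = 0.736). Myod1, the muscle regulator that these tumours express, had 95.5, 81.4, 78.2 and 26.2 CPM in detected cells and 94.9, 54.3, 62.8 and 19.96 CPM in undetected cells (difference 0.27, SE 0.11, adjusted p = 0.699). The IGF axis and imprinted genes had 0 of 13 past the threshold, Myc family and ribosome biogenesis 0 of 26, Polycomb and DNA methylation genes 0 of 12 with Ezh2 at 0.19 (SE 0.06, adjusted p = 0.524), and p53 targets 0 of 12. Stress and immediate early genes, a list sensitive to cell dissociation, had 0 of 11, ribosomal protein genes 0 of 82 (median 0.00) and mitochondrial transcripts 0 of 14 (median -0.02).

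The same cells were next divided by Hey1, a transcript found in more of them, to ask which differences belonged to division by Gli1 in particular. Hey1 was detected in 1421 and undetected in 369 gated cells, and 57, 161, 100 and 51 pairs were matched for depth in tumours 1 to 4. Median depths of these pairs were 10595, 8024, 5886.5 and 7536 UMIs in Hey1-detected and 10587, 8018, 5867.5 and 7499 UMIs in Hey1-undetected cells. The match was thus closer than in the Gli1 split, where detected cells stayed deeper. The part of that unequal match in the comparison of the 2 splits was not tested. The division by Hey1 gave 31 calls among 9705 genes (0.319%). The difference of differences, Gli1 split minus Hey1 split, was tested within tumours; the 2 splits share cells, so their values are given side by side and no overlap is read from them. It passed for 12 genes (0.124%), all of them with the higher difference in the Gli1 split.

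Of these 12 genes 6 belonged to the G2/M and mitosis list, namely Top2a, Cdk1, Aurka, Aurkb, Hmmr and Arl6ip1. Aurkb differed by 0.49 (SE 0.11) in the Gli1 split and by -0.50 (SE 0.15) in the Hey1 split, which leaves 0.99 (SE 0.16, adjusted p = 0.0148). Top2a differed by 0.28 (SE 0.08) and -0.44 (SE 0.12), which leaves 0.72 (SE 0.10, adjusted p = 0.00707). Hmmr, a spindle protein, differed by 0.22 (SE 0.14) and -0.80 (SE 0.16). Ttk, a kinase of the spindle checkpoint, differed by 0.33 (SE 0.13) and -0.93 (SE 0.21), the widest gap of the 12 at 1.26 (SE 0.23, adjusted p = 0.0249). All 12 had the same sign in 4 of 4 tumours. The myeloid genes were lower in Hey1-detected cells as well: Fcer1g differed by -1.49 (SE 0.11) in the Gli1 split and by -2.03 (SE 0.16, adjusted p = 1.05e-06) in the Hey1 split. Cd74, 1 of the 12, differed by -2.44 (SE 0.16) and by -3.26 (SE 0.42, adjusted p = 0.234), so it counts as higher in the Gli1 split only by being less far below 0. Cells with 20 or more myeloid UMIs numbered 4 of the 369 paired Hey1-detected and 11 of the 369 Hey1-undetected cells. Without such cells in either split Cd74 was not among the genes that passed. The part of these cells in the Hey1 split's values was not tested.

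The Hey1 side held the wider departure from 0 for the G2/M list. That list had a median of 0.11 in the Gli1 split and -0.40 in the Hey1 split, while the hedgehog target genes had 0.13 and 0.12. Myod1 also passed, with 0.27 (SE 0.11) in the Gli1 split and -0.70 (SE 0.15) in the Hey1 split. In the Hey1 split Myod1 had 78.2, 53.1, 43.9 and 7.37 CPM in detected and 115, 102.5, 92.6 and 15.0 CPM in undetected cells. Gli1 itself, in the cells divided by Hey1, had 45.5, 60.6, 61.1 and 34.4 CPM in Hey1-detected and 28.5, 78.6, 59.7 and 32.4 CPM in Hey1-undetected cells, and these groups overlapped. The 12 calls depended on the tumours: without tumour 2 or without tumour 3 the count was 0, without tumour 1 it was 22 and without tumour 4 it was 9.

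**Figure D5:**
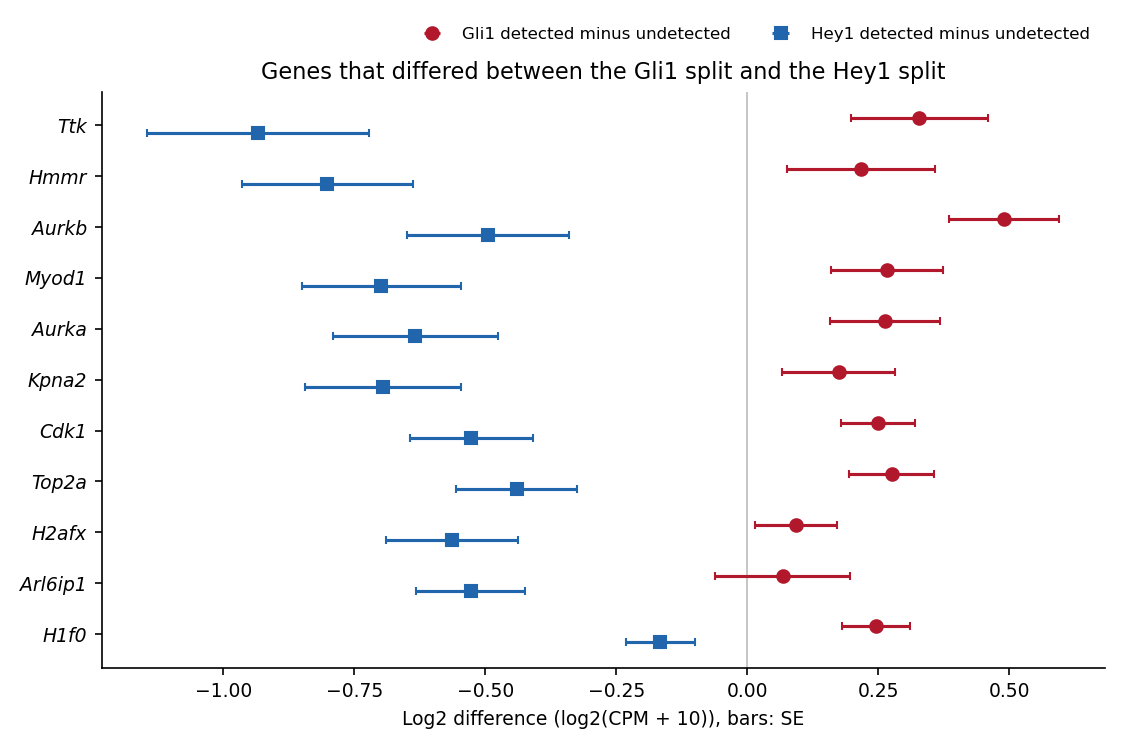
Log2 differences with SE between detected and undetected progenitor-like cells for division by Gli1 (red circles, upper of each pair) and by Hey1 (blue squares), for 11 of the 12 genes whose differences differed (Cd74, far outside the axis, is left out). Circles lie between 0.07 and 0.49 and squares between -0.93 and -0.17.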

How the data were processed

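Each of 4 tumours had 1 deposited table of log2 values per gene and cell. Per the submitters' processing notes, Cell Ranger, Seurat and mm10 were used; versions, order and filters are not given in the sources used here. From the values themselves, the deposited log2 values were log2(UMI count / size factor + 1): 0 values lay off a whole UMI within a relative 1e-06, so UMI counts were worked back. Since the deposited unit is log2, no count model was used. Tables held 798, 2589, 1229 and 1893 cells with 19446245, 23439893, 10458431 and 18242667 UMIs; they listed 33219, 14833, 13622 and 15359 genes, of which 13149 were common to all. There were 17 barcodes found in more than 1 table, and 0 of them among gated cells of 2 tables.

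UMIs of depth-matched cells were summed per tumour and group, and log2(CPM + 10) was fitted with limma 3.58.1 (trend, robust; R 4.3.3, statmod 1.5.0) with tumour as block. CPM totals left Gli1 out. Adjusted p-values are Benjamini-Hochberg over all 9706 genes with a UMI in 5% of gated cells; the threshold was 0.05. Gli1, Atoh1, Ptprc and the 5 neuronal gate genes were not tested. Mitotic shares were compared by an exact sign-flip permutation test. Scripts were tested on simulated data. No doublet caller was run; leaving out cells above the 95th percentile of UMIs was an alternative.

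Both groups of a pair come from the same tumour, which is why tumour is the block; deviations of same-tumour sums correlated at 0.657, 0.731, 0.662 and 0.602 in tumours 1 to 4. Named are the hedgehog lists, up to 10 called genes a direction by size (or the 5 smallest p), up to 4 genes of each other list by p, gate genes, and leading genes of the Hey1 comparison; the other called genes and Mki67, Gfap, Apoe, Barhl1 and Zic1 were added after their values were seen. Members and lists were chosen with earlier results of these data known. Positions of 128 of 130 symbols came from the GRCm38.p6 annotation, the assembly behind mm10. A member of the hedgehog target list enters its counts and medians and is not reported by name here.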

Additional observations from a re-analysis of the deposited data

Results flagged for a closer look

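Of 156 sets of 4 tumour values examined for 1 tumour far from the others by Dixon's ratio (the gap over the range, past its 95% critical value), 12 were flagged, and chance flags about 1 in 20. Among within-tumour differences, detected minus undetected, the outlying tumour and its ratio were tumour 4 for Spop at -0.57 (0.861), tumour 3 for Tyrobp at -0.81 (0.854), tumour 1 for Ift88, a ciliary transport gene, at -0.01 (0.830), tumour 4 for Elavl2 at 0.49 (0.855) and tumour 3 for the mitochondrial ribosomal RNA mt-Rnr2 at -0.19 (0.877). Among levels, tumour 4 stood apart for Fcer1g in detected cells (124 CPM, ratio 0.858) and in undetected cells (327 CPM, 0.857). It also stood apart in undetected cells for Cd74 (2049 CPM, 0.844), H2-Ab1 (905 CPM, 0.901) and, as the low value, Hhip (9.07 CPM, 0.858). Tumour 1 stood apart for Cdkn1c in detected cells (430 CPM, 0.961) and in undetected cells (755 CPM, 0.981).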

How the results depend on the processing

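The count of 14 genes between Gli1-detected and undetected cells stayed within 1.5 times of itself in 6 settings not leaving out a tumour: 11 after thinning, 13 with a caliper of 0.05, 11 without the deepest cells, 12 with median-of-ratios factors, 13 with a 10% filter and 10 with no filter. It was 50 without matching, 2 with Gli1 status from thinned counts, 9 at a pseudocount of 1 CPM, 4 at 50 CPM and 65 with voom weights. It was 3 without neuronal gate genes (tumours 1 and 2 alone had enough pairs) and 1 for 2 or more Gli1 UMIs against 0. It was 0 when matched on mitotic transcripts too (539 genes at an unadjusted p under 0.05), 0 in non-mitotic cells (557), 0 on mean deposited log2 values (608) and 0 without myeloid-rich cells. Leaving out 1 tumour gave 11 to 26. Without the replicate block (tumour) 0 passed and 64 had an unadjusted p under 0.05. The cause of each move was not tested. Without myeloid-rich cells the sign turned for H2-Ab1 (0.0575), Fcer1g (0.00152), Tyrobp (0.113), Cd52 (0.106) and Cd68 (0.0166).

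The count of 12 genes for the Gli1 split minus the Hey1 split was 6 without matching, 3 at a pseudocount of 1 CPM and 1 with no filter, and 0 to 22 when 1 tumour was left out; it was 13 matched on mitotic transcripts, 18 without myeloid-rich cells and 14 in both other settings. The mitotic share difference of -0.90 points turned to 8.96 without matching and 11.5 without neuronal gate genes. After thinning it was 1.28 with the groups kept and -7.07 with Gli1 status from thinned counts. Leaving out 1 tumour gave -3.17 to 2.67. The depth of the smallest group, 43 pairs in tumour 4, limits every test: 1 UMI there was 1.75 CPM in detected and 1.81 CPM in undetected cells.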
